A study of Homo sapiens with 14 samples.

Results

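The genes described here are 10 members of the immediate early response, in 2 human myeloma cell lines depleted of ZBP1: the FOS family genes FOS, FOSB and FOSL2, the JUN family genes JUN, JUNB and JUND, the transcription factor gene EGR1, the nuclear protein gene IER2, and the ERK phosphatase genes DUSP5 and DUSP6. They were taken by symbol from the gene tables of both lines, where all 10 were found among 58051 genes and all 10 passed the filter on low values in both lines. Immediate early genes are transcribed within minutes of a stimulus without new protein synthesis, and most of their mRNAs are short-lived. FOS and JUN proteins pair to form AP-1, a transcription factor; EGR1 is a zinc finger transcription factor. Much of the induction runs through the kinases ERK, JNK and p38, which act on SRF with its ternary complex partners and on CREB family factors, and DUSP5 and DUSP6 in turn remove phosphate from ERK in the nucleus and the cytoplasm.

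ZBP1, a sensor of Z-form nucleic acids, was depleted by lentiviral hairpins to ask how the transcriptomes of MM1.S and H929 cells depend on it. The study made 14 libraries, 2 for each of 7 groups. The MM1.S groups were cells with hairpin shRNA1, cells with hairpin shRNA2, and cells with a scramble control that serves both hairpins. In H929 they were shRNA1 with a scramble control of its own, and shRNA2 with another scramble control of its own. All groups, controls included, were transduced with lentivirus and grown in RPMI medium with serum, with no stimulus named in the labels, and poly(A) RNA was sequenced. Neither the time after transduction nor separate cultures for replicates are given in the labels, so a p-value here reflects the spread among these libraries alone. With bulk RNA, fewer cells expressing a gene and less RNA per cell cannot be told apart.

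Libraries held 20461980 to 28419331 reads in genes in MM1.S and 15926867 to 22254348 in H929. ZBP1 averaged 17.1% of its scramble level with shRNA1 and 11.6% with shRNA2 in MM1.S, and 40.4% and 32.6% in H929. Its level differed between the hairpins in MM1.S (log2 difference of shRNA2 over shRNA1 -0.56 ± 0.15 (SE), edgeR adjusted p = 0.0222), and the drop was larger in MM1.S than in H929 with either hairpin. The plasma cell markers SDC1, XBP1 and IRF4 were present in every library of both lines, MAF was highest in MM1.S, and WHSC1 and FGFR3 were highest in H929, the pattern known for these lines. The summed level of 10 plasma cell markers was 3903 to 4190 CPM with shRNA1 and 3148 to 3398 with shRNA2, against 5900 to 6020 with scramble, in MM1.S, and in H929 5730 to 6132 with shRNA1 against 6733 to 6855 and 5118 to 5455 with shRNA2 against 6893 to 7332. With shRNA1, 2 of the 10 were called higher (CD38, CD79A) and 5 lower in MM1.S. In H929, 4 were called higher with shRNA1 (CD38, IRF4, POU2AF1, PRDM1) and 5 lower. Of all genes, 17.8% rose and 19.7% fell with shRNA1 in MM1.S, and 25.7% and 27.7% in H929. With shRNA2 none was called higher, while 9 were lower in MM1.S and 5 in H929, where 21.7% and 25.0% of all genes fell. The summed level of 15 markers of T cells, B cells, myeloid, stromal, endothelial, red cells and platelets was 42.0 to 46.1 CPM with shRNA1, 15.5 to 16.4 with shRNA2 and 45.8 to 47.9 with scramble in MM1.S. In H929 it was 98.7 to 122 CPM with shRNA1 against 33.5 to 35.9 with its scramble, and 34.7 to 45.8 with shRNA2 against 32.5 with its scramble. PECAM1, an endothelial and platelet gene, reached 35.0 CPM in MM1.S and 77.0 CPM in H929 and was called lower with shRNA2 in both lines and higher with shRNA1 in H929. The stromal gene COL1A1 was called higher with shRNA1 and lower with shRNA2 in both lines. Its median was 0.885 CPM in MM1.S and 0.602 CPM in H929, and its highest level 3.16 CPM in MM1.S and 32.1 CPM in H929. COL1A2, another stromal gene, had at most 1 read in any MM1.S library and 2 in any H929 library. VWF, an endothelial gene, had at most 29 reads in MM1.S, where it was called lower with shRNA2, and at most 1 in H929. The platelet gene PPBP had 0 reads in both lines. The T cell gene CD3E was called higher with shRNA2 in both lines, while CD3D, another T cell gene, had at most 2 reads in any library. The red cell gene HBB was called lower with shRNA1 in MM1.S, and CD4 lower with shRNA1 in H929. With shRNA2 in H929, LYZ was called higher and CD14, CSF1R and PAX5 lower. CD4, LYZ, CD14, CSF1R and PAX5 each had at most 54 reads in any H929 library. The part of such cells, or of plasma cell state, in the results was not tested.

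The promoters of FOS, FOSB, JUN and EGR1 are shown because these 4 genes span the largest responses below. The 9 members with an entry in the RefSeq promoter set (GRCh38.p14) were searched from 250 bases before to 50 bases after the start, on both strands. The start is that of the promoter set and can differ from the gene start given with each gene below. The whole JUN stretch and the ends of the FOS and FOSB stretches printed here lie inside those gene coordinates. Each line gives the 110 bases before the start, with capitals marking the CRE half-site TGACG or its reverse CGTCA, the CRE-like TGACATCA, the TATA box TATAAA and the CArG box, the element that SRF binds.
FOS, chr14:75278718-75278827, + strand: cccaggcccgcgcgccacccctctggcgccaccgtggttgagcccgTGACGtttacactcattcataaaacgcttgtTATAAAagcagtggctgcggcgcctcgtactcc
FOSB, chr19:45467886-45467995, + strand: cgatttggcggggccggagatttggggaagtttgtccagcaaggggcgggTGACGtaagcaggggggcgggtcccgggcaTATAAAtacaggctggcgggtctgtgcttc
JUN, chr1:58784048-58784157, - strand: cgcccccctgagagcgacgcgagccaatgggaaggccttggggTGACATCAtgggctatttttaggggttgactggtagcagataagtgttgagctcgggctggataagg
EGR1, chr5:138465369-138465478, + strand: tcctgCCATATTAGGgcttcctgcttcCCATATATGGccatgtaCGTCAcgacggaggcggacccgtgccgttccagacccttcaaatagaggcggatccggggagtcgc

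FOS and FOSB share an arrangement in this window, a CRE half-site 64 and 60 bases before the start and a TATA box 33 and 30 bases before it, counted at the first base of each motif. Of the 9 promoters, 8 held the CRE half-site, against 24.6% of 35116 promoters of the same length. DUSP6 held none of the motifs searched. The whole CRE (TGACGTCA, which contains the half-site on both strands) was found in JUND alone, against 1.85% of promoters. CArG boxes were found in EGR1 alone, which held 2 in the full window, both in the stretch printed, against 1.29% of promoters. Sites more than 250 bases before the start were not searched, so a CArG box farther upstream of another member would be missed. TATAAA was found in FOS, FOSB and JUNB, against 11.5%, the AP-1 motif TGANTCA in FOSL2 alone, against 7.71%, and the EGR motif GCGNGGGCG in EGR1 alone, against 9.43%. The GC box GGGCGG was found in 6 of the 9, against 45% of promoters, and the ETS motif CCGGAA in 2 (IER2, FOSB), against 17.2%. The members are compact genes: in the coding transcript used for each (GENCODE 29), JUN, JUNB, JUND and IER2 have 1 exon, against 5.93% of protein-coding genes, and the median gene span was 4160 bp against 26927 bp. Their 3′ UTRs held the pentamer ATTTA, part of the element tied to rapid mRNA decay, in 8 of 10, against 67.5% of protein-coding genes, and the median was 1.43 per kb for the members against 1.55 for all. FOS was the densest member, with 6.20 per kb.

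In the scramble controls the members spanned a wide range of levels, given here as CPM per kb of exon (counts relative to the library total, scaled within the line, divided by exon length). DUSP5 was the highest in all 7 groups, at 228 CPM per kb in MM1.S scramble, 485 in the H929 scramble for shRNA1 and 329 in the H929 scramble for shRNA2. In MM1.S scramble cells it was followed by JUND (41.7), JUN (18.4), JUNB (11.5), DUSP6 (6.94), FOS (6.72), FOSL2 (2.48), FOSB (1.83), IER2 (0.876) and EGR1 (0.246). The 2 libraries of DUSP6 and FOS overlapped, as did those of FOSL2 and FOSB, and the other neighbours in this order did not. In both H929 scramble groups JUNB, JUND and IER2 followed DUSP5 and FOSB came last; the libraries of JUN and DUSP6, of EGR1 and FOS, and of FOS and FOSL2 overlapped in both groups. The lines differed most in IER2, at 51.3 and 44.7 CPM per kb in the H929 scramble groups, and in EGR1, at 10.9 and 7.16. These levels across lines come from tables scaled separately and were not tested.

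**Figure D1:**
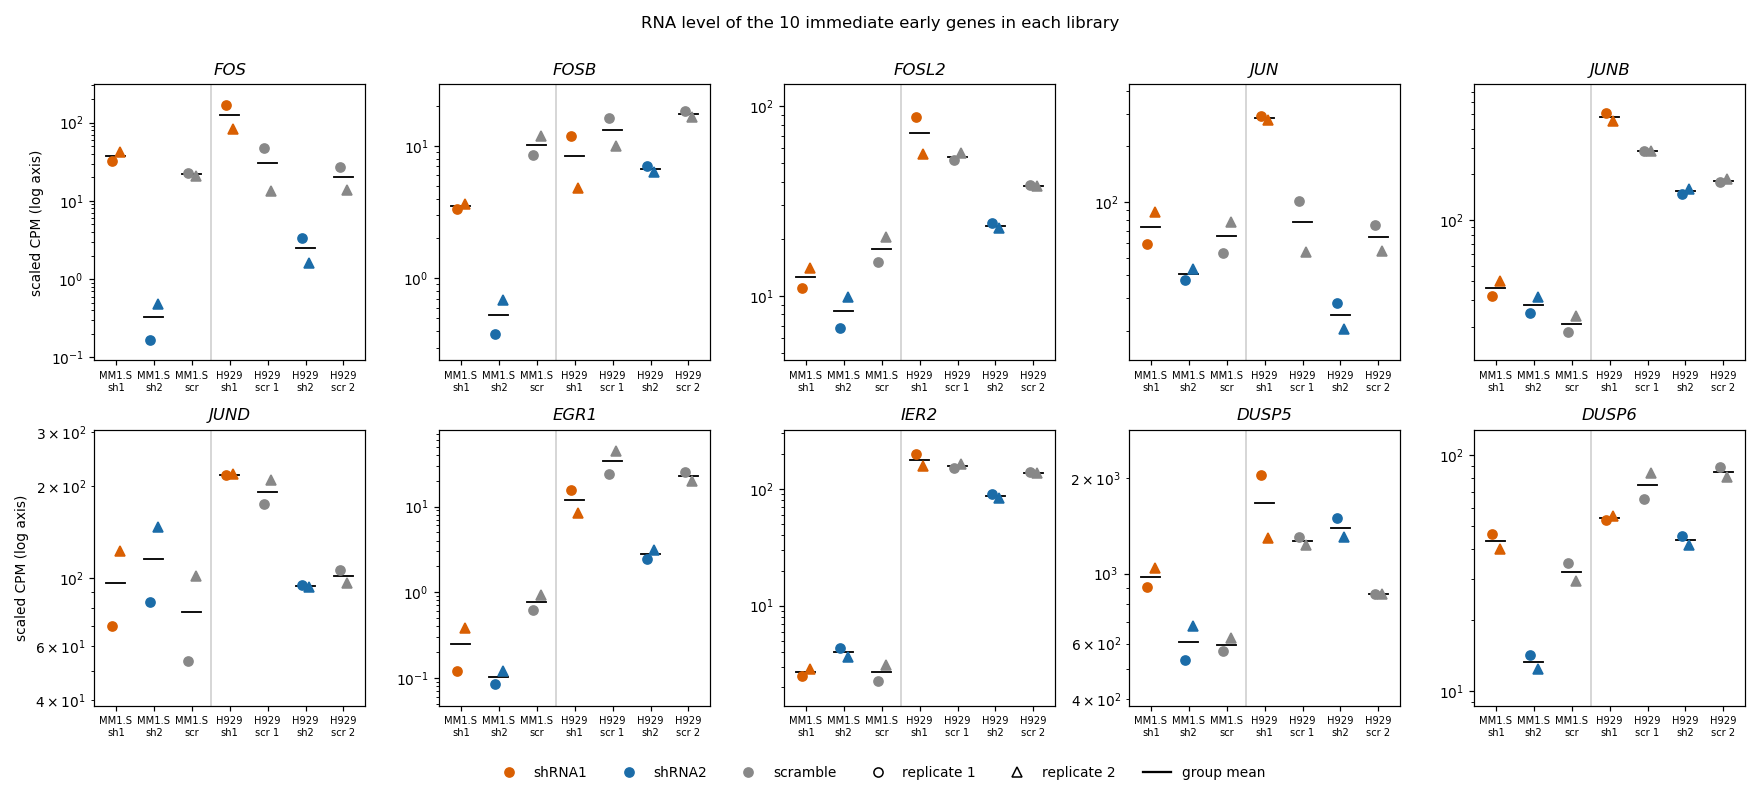
Scaled CPM (log axis, a separate scale per gene) of each member in each of the 14 libraries; circles are replicate 1, triangles replicate 2 and black lines the means of 2 libraries. FOS sits at 0.169 and 0.482 CPM with shRNA2 in MM1.S, below every other library of that line, and JUN at 292 and 277 CPM with shRNA1 in H929, above every other library.

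Among the FOS family, FOS itself went in opposite directions with the hairpins, up with shRNA1 and down with shRNA2, in both lines. FOSB was lower in all 4 hairpin comparisons. FOSL2 fell with shRNA2 in both lines. These are relative to scramble groups that, in MM1.S, are the same 2 libraries for both hairpins.

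FOS (ENSG00000170345, chr14:75278774-75282230, + strand) encodes the prototype partner of JUN in AP-1. In MM1.S it had 32.4 and 41.5 CPM with shRNA1 and 0.169 and 0.482 CPM with shRNA2, against 22.5 and 21.0 CPM with scramble. The 3 groups did not overlap, and the shRNA2 values rest on 4 and 12 reads. FOS rose with shRNA1 (log2 fold change 0.76 ± 0.21 (SE), edgeR adjusted p = 0.0253) and fell with shRNA2 (-6.03 ± 0.33, edgeR adjusted p = 2.54e-05). The reads of both shRNA2 libraries came to 0.0151 times those of scramble after scaling (95% exact interval 0.00862 to 0.0247, counting error only). The rise with shRNA1 did not pass the threshold without scramble replicate 2 (0.71, edgeR adjusted p = 0.0618) or without shRNA1 replicate 2 (0.62, edgeR adjusted p = 0.114), nor in limma (0.75, adjusted p = 0.159).

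In H929, FOS had 167 and 83.3 CPM with shRNA1, against 47.6 and 13.6 CPM with its scramble. It had 3.37 and 1.62 CPM with shRNA2, against 26.8 and 13.96 CPM with its scramble. Neither pair of groups overlapped, although replicate 1 exceeded replicate 2 by 1.92 to 3.51 times in each of the 4 groups. The shRNA1 rise was 2.21 ± 0.46 (SE, limma adjusted p = 6.72e-04), and the shRNA2 fall was -3.01 ± 0.46 (limma adjusted p = 6.71e-05). Without replicate 2 of the scramble for shRNA1 the rise was 1.31 (limma adjusted p = 0.0121). All H929 fold changes are on the scale of log2(value + 1), which understates the change of low genes.

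FOSB (ENSG00000125740, chr19:45467995-45475179, + strand) encodes a second FOS protein with a long-lived splice form. MM1.S cells had 3.35 and 3.64 CPM with shRNA1 and 0.379 and 0.683 CPM with shRNA2, against 8.52 and 11.8 CPM with scramble. The groups did not overlap, and FOSB fell both with shRNA1 (-1.54 ± 0.26 (SE), edgeR adjusted p = 0.00276) and with shRNA2 (-4.24 ± 0.32, edgeR adjusted p = 7.94e-05). In H929 it had 12.0 and 4.81 CPM with shRNA1, against 16.3 and 9.92 CPM with its scramble. These groups overlapped, since the higher shRNA1 library lay between the 2 scramble libraries. FOSB had 7.05 and 6.35 CPM with shRNA2 in H929, against 18.5 and 16.6 CPM with its scramble, with no overlap, and fell by 1.38 ± 0.30 (SE; limma adjusted p = 0.00154). The change with shRNA1 in H929 was -0.74 ± 0.30 (SE; limma adjusted p = 0.0477). It was -0.09 without shRNA1 replicate 2 (limma adjusted p = 0.767), -0.38 without replicate 1 of its scramble (limma adjusted p = 0.376) and -1.39 without shRNA1 replicate 1 (limma adjusted p = 8.24e-05), and it did not pass with edgeR (adjusted p = 0.0681), DESeq2 (0.350), no filter (0.208) or only the compared groups fitted (0.126). FOSB overlaps ERCC1 on the opposite strand and the labels do not state strandedness; ERCC1 differed by 0.39 and 0.64 with shRNA1 and shRNA2 in MM1.S and by -0.68 and 0.29 in H929.

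FOSL2 (ENSG00000075426, chr2:28392448-28417312, + strand) encodes FRA2, a FOS protein that lacks a strong activation domain. MM1.S cells had 11.0 and 14.1 CPM with shRNA1 and 6.78 and 9.84 CPM with shRNA2, against 15.1 and 20.4 CPM with scramble. Both hairpin groups lay below scramble without overlap. FOSL2 fell with shRNA2 (-1.09 ± 0.24 (SE), edgeR adjusted p = 0.01004), a call that was lost without shRNA2 replicate 1 (-0.85, edgeR adjusted p = 0.0754). With shRNA1 the difference was -0.50 ± 0.24 (SE; edgeR adjusted p = 0.136), which passed with the replicate number as a block (-0.49, edgeR adjusted p = 0.00220). In H929, FOSL2 had 88.1 and 56.1 CPM with shRNA1, against 52.0 and 56.6 CPM with its scramble. The shRNA1 libraries differed so much that 1 of them lay inside the scramble range. FOSL2 had 24.3 and 22.7 CPM with shRNA2, against 38.4 and 37.9 CPM with its scramble, and fell by 0.70 ± 0.15 (SE; limma adjusted p = 0.00146). The rise with shRNA1 (0.37 ± 0.15 (SE), limma adjusted p = 0.0463) depended on replicate 1 of shRNA1: it was 0.05 without it (limma adjusted p = 0.763) and 0.70 without shRNA1 replicate 2 (limma adjusted p = 6.30e-05), and it was also lost without replicate 1 of its scramble (0.31, limma adjusted p = 0.181) or replicate 2 (0.43, limma adjusted p = 0.0630), with TMM scaling (limma adjusted p = 0.0589), with no filter (0.178) and with only the compared groups fitted (0.112).

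Summed over the 3 genes, the FOS family level was 13.8 CPM per kb with shRNA1 and 1.36 with shRNA2, against 11.0 with scramble, in MM1.S. FOS made up 82.7% of this level with shRNA1 and 6.96% with shRNA2, against 61.1% with scramble, and FOSL2 made up 86.1% with shRNA2. In H929 the sum was 50.3 CPM per kb with shRNA1 against 19.4 with its scramble, and 5.27 with shRNA2 against 14.8 with its scramble. FOS made up 76.4% of it with shRNA1 against 44.6% with its scramble, and 14.3% with shRNA2 against 41.5% with its scramble. FOSL2 was therefore the largest share of the family level with shRNA2 in both lines.

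**Figure D2:**
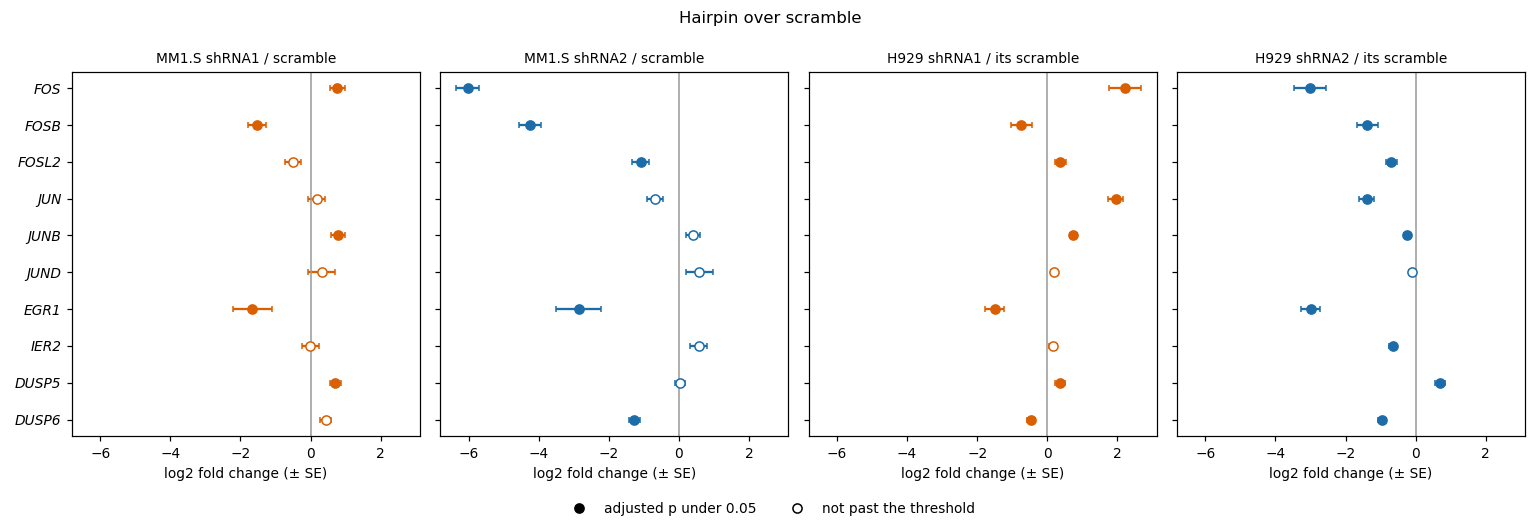
Log2 fold change of each member for hairpin over scramble, with bars for 1 SE; filled points have an adjusted p under 0.05 (edgeR for MM1.S, limma for H929, 2 libraries a group). FOS lies at 0.76 and -6.03 in MM1.S and at 2.21 and -3.01 in H929, for shRNA1 and shRNA2.

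The JUN family followed the hairpins less evenly than FOS did. JUN and JUNB both went up with shRNA1 and down with shRNA2 in H929, and JUNB went up with shRNA1 in MM1.S. No difference of JUND from scramble passed the threshold with all libraries, the filter on low values and no replicate block.

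JUN (ENSG00000177606, chr1:58780788-58784327, - strand) encodes c-Jun, the AP-1 subunit that JNK phosphorylates. In H929 it had 292 and 277 CPM with shRNA1, against 101 and 53.5 CPM with its scramble. It had 28.3 and 20.6 CPM with shRNA2, against 74.7 and 54.1 CPM with its scramble. Neither pair of groups overlapped, so that JUN rose with shRNA1 (1.95 ± 0.22 (SE), limma adjusted p = 1.50e-06) and fell with shRNA2 (-1.40 ± 0.22, limma adjusted p = 8.93e-05). Levels of JUN in MM1.S were 58.9 and 87.9 CPM with shRNA1 and 37.6 and 43.5 CPM with shRNA2, against 52.7 and 77.4 CPM with scramble. The shRNA1 libraries overlapped those of scramble, and the shRNA2 libraries lay below them. JUN differed by 0.17 ± 0.23 with shRNA1 (SE; edgeR adjusted p = 0.596), and with shRNA2 by -0.68 ± 0.24 (edgeR adjusted p = 0.0547). The second passed with the replicate block (-0.66, edgeR adjusted p = 4.94e-05), with DESeq2 (adjusted p = 0.0136) and without scramble replicate 1 (-0.93, edgeR adjusted p = 0.0143).

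JUNB (ENSG00000171223, chr19:12791496-12793315, + strand) encodes an AP-1 subunit with weaker activation than JUN at many sites. MM1.S cells had 31.9 and 40.01 CPM with shRNA1 and 24.4 and 31.1 CPM with shRNA2, against 18.4 and 23.4 CPM with scramble. Both hairpin groups lay above scramble, and JUNB rose with shRNA1 by 0.78 ± 0.19 (SE; edgeR adjusted p = 0.0154), although not without scramble replicate 1 (0.61, edgeR adjusted p = 0.0630) or shRNA1 replicate 2 (0.65, edgeR adjusted p = 0.0603). With shRNA2 the difference was 0.41 (edgeR adjusted p = 0.135), and it passed with the replicate block (0.41, edgeR adjusted p = 8.08e-04). In H929, JUNB had 509 and 447 CPM with shRNA1, against 284 and 285 CPM with its scramble. It had 149 and 160 CPM with shRNA2, against 178 and 186 CPM with its scramble. Neither pair overlapped, and JUNB rose with shRNA1 (0.75 ± 0.09 (SE), limma adjusted p = 2.14e-06) and fell with shRNA2 (-0.24 ± 0.09, limma adjusted p = 0.0364). The fall was not past the threshold without any 1 of the 4 libraries compared (-0.29 to -0.19, limma adjusted p = 0.0655 to 0.261), nor with TMM scaling (0.0555), edgeR (0.0842), no filter (0.0917) or all 4 scramble libraries as the control (-0.56, 0.0726). JUNB overlaps HOOK2 on the opposite strand, and HOOK2 differed by 0.52 and 0.85 in MM1.S and by 0.51 and 1.11 in H929 with shRNA1 and shRNA2.

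JUND (ENSG00000130522, chr19:18279760-18281622, - strand) encodes the JUN protein that is present in many resting cells. Levels in MM1.S were 70.0 and 123 CPM with shRNA1 and 84.1 and 147 CPM with shRNA2, against 53.7 and 102 CPM with scramble. All 3 groups overlapped, and in each of them replicate 1 had 0.528 to 0.570 times the level of replicate 2. The differences were 0.31 with shRNA1 (edgeR adjusted p = 0.554) and 0.58 with shRNA2 (edgeR adjusted p = 0.274). Without the filter the second passed (0.61, edgeR adjusted p = 4.21e-04). With the replicate block both passed, at 0.33 and 0.59 (edgeR adjusted p = 4.04e-04 and 4.52e-06). In H929, JUND had 217 and 219 CPM with shRNA1, against 175 and 209 CPM with its scramble, and the difference was 0.19 (limma adjusted p = 0.0975), which passed without replicate 2 of that scramble (limma adjusted p = 0.0187). It had 95.1 and 93.9 CPM with shRNA2, against 107 and 96.8 CPM with its scramble, and the difference was -0.10 (limma adjusted p = 0.396).

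The JUN family level summed to 92.4 CPM per kb with shRNA1 and 88.8 with shRNA2, against 71.6 with scramble, in MM1.S. In H929 it was 460 with shRNA1 against 281 with its scramble, and 143 with shRNA2 against 173 with its scramble. JUND was the largest part in all 3 MM1.S groups (55.5%, 69.1% and 57.3% with shRNA1, shRNA2 and scramble), and JUNB was the largest in all 4 H929 groups (55.6% to 59.6%).

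EGR1 was lower with both hairpins in both lines, and IER2 fell with shRNA2 in H929. EGR1 (ENSG00000120738, chr5:138465490-138469315, + strand) is a classical target of SRF, and the pair of CArG boxes lies in the stretch printed. In H929 it had 15.7 and 8.45 CPM with shRNA1, against 23.8 and 44.5 CPM with its scramble. It had 2.45 and 3.07 CPM with shRNA2, against 25.04 and 19.9 CPM with its scramble. Neither pair of groups overlapped, and EGR1 fell with shRNA1 (-1.49 ± 0.27 (SE), limma adjusted p = 2.20e-04) and with shRNA2 (-2.997 ± 0.27, limma adjusted p = 3.62e-07).

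EGR1 was close to the limit of detection in MM1.S, with 3 and 8 reads with shRNA1 and 2 and 3 reads with shRNA2, against 16 and 25 reads with scramble. As levels these are 0.118 and 0.383 CPM, 0.0842 and 0.121 CPM, and 0.626 and 0.917 CPM. The hairpin groups lay below scramble without overlap. The scaled reads of the group came to 0.307 times those of scramble with shRNA1 (95% exact interval 0.142 to 0.608) and to 0.133 times with shRNA2 (0.0409 to 0.335), counting error only. The edgeR adjusted p was 0.0484 with shRNA1 and 0.0107 with shRNA2. With shRNA1 the log2 change of -1.66 was -1.91 without scramble replicate 1 (edgeR adjusted p = 0.0530), -0.96 without shRNA1 replicate 1 (adjusted p = 0.323), -1.37 without scramble replicate 2 (adjusted p = 0.190) and -2.61 without shRNA1 replicate 2 (adjusted p = 0.0419), and it did not pass in limma (adjusted p = 0.0659) or with only the compared groups fitted (0.0613). With shRNA2 the change of -2.85 missed the threshold without shRNA2 replicate 1 (-2.63, edgeR adjusted p = 0.0810) or replicate 2 (-3.12, edgeR adjusted p = 0.0584).

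IER2 (ENSG00000160888, chr19:13150415-13154908, + strand) encodes a small nuclear protein. In H929 it had 198 and 157 CPM with shRNA1, against 150 and 165 CPM with its scramble, which overlapped. It had 90.5 and 84.5 CPM with shRNA2, against 139 and 136 CPM with its scramble, and fell by 0.65 ± 0.10 (SE; limma adjusted p = 1.07e-04) without overlap. The difference with shRNA1 was 0.16 (limma adjusted p = 0.194), and 0.33 without shRNA1 replicate 2 (limma adjusted p = 0.00916). Levels in MM1.S were 2.49 and 2.88 CPM with shRNA1 and 4.34 and 3.62 CPM with shRNA2, against 2.27 and 3.12 CPM with scramble. The shRNA1 libraries lay inside the scramble range and the shRNA2 libraries above it, with differences of -0.01 and 0.56 (edgeR adjusted p = 0.977 and 0.105). The second passed with the replicate block (0.57, edgeR adjusted p = 0.0423).

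The ERK phosphatases were unlike each other. DUSP6 fell in 3 of the 4 hairpin comparisons, while DUSP5 rose in 3 of 4. DUSP6 (ENSG00000139318, chr12:89347232-89353271, - strand) is widely read as a transcriptional output of ERK signalling. In MM1.S it had 46.6 and 40.01 CPM with shRNA1 and 14.2 and 12.5 CPM with shRNA2, against 34.9 and 29.4 CPM with scramble. No 2 of these groups overlapped. DUSP6 fell with shRNA2 (-1.27 ± 0.16 (SE), edgeR adjusted p = 7.55e-04), and with shRNA1 the difference was 0.43 ± 0.15 (SE; edgeR adjusted p = 0.0571), which passed with the replicate block (0.43, edgeR adjusted p = 3.41e-04). In H929 it had 53.2 and 55.5 CPM with shRNA1, against 65.2 and 84.6 CPM with its scramble. It had 45.3 and 41.9 CPM with shRNA2, against 89.7 and 80.7 CPM with its scramble. Both hairpin groups lay below their scramble groups without overlap, and DUSP6 fell with shRNA1 (-0.45 ± 0.11 (SE), limma adjusted p = 0.00335) and with shRNA2 (-0.96 ± 0.11, limma adjusted p = 5.98e-06). Without replicate 2 of the scramble for shRNA1 the first was -0.26 (limma adjusted p = 0.0775).

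DUSP5 (ENSG00000138166, chr10:110497838-110511544, + strand) had 908 and 1042 CPM with shRNA1 and 532 and 682 CPM with shRNA2, against 569 and 623 CPM with scramble, in MM1.S. The shRNA1 libraries lay above the others, and those of shRNA2 spanned the scramble range. DUSP5 rose with shRNA1 by 0.71 ± 0.15 (SE; edgeR adjusted p = 0.00823) and differed by 0.03 with shRNA2 (edgeR adjusted p = 0.908). In H929 it had 2051 and 1298 CPM with shRNA1, against 1307 and 1227 CPM with its scramble, which overlapped. It had 1493 and 1301 CPM with shRNA2, against 860 and 859 CPM with its scramble, and rose by 0.70 ± 0.15 (SE; limma adjusted p = 0.00132) without overlap. Against all 4 scramble libraries as 1 group this was 0.42 (limma adjusted p = 0.210). The rise with shRNA1 in H929 (0.36 ± 0.15 (SE), limma adjusted p = 0.0489) was 0.03 without shRNA1 replicate 1 (limma adjusted p = 0.811) and 0.69 without shRNA1 replicate 2 (limma adjusted p = 3.09e-05), and it missed the threshold without scramble replicate 1 (0.41, limma adjusted p = 0.0779) or scramble replicate 2 (0.32, limma adjusted p = 0.165), with TMM scaling (limma adjusted p = 0.0598), DESeq2 (0.186), no filter (0.194) and only the compared groups fitted (0.124).

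The members were chosen with earlier results of these data known. Their counts here and below are therefore no independent test against the shares of all genes. Counted over the 10 members, 3 rose (FOS, JUNB, DUSP5) and 2 fell (FOSB, EGR1) with shRNA1 in MM1.S, where 37.5% of all 17820 genes tested were called, 17.8% up and 19.7% down. With shRNA2 in MM1.S none rose and 5 fell (FOS, FOSB, FOSL2, EGR1, DUSP6), against 36.6% of all genes called, 14.9% up and 21.7% down. In H929, 5 rose (FOS, FOSL2, JUN, JUNB, DUSP5) and 3 fell (FOSB, EGR1, DUSP6) with shRNA1, against 53.4% of 18213 genes called, 25.7% up and 27.7% down. With shRNA2 in H929, 1 rose (DUSP5) and 8 fell, all but DUSP5 and JUND, against 43.0% called, 18.0% up and 25.0% down. The median log2 change of the members was 0.24 and -0.89 in MM1.S and 0.28 and -0.83 in H929 for shRNA1 and shRNA2, with the median of all genes between -0.03 and 0.00. A rise with shRNA1 together with a fall with shRNA2 was called for FOS in MM1.S, where 2.26% of genes did so, and for FOS, FOSL2, JUN and JUNB in H929, where 5.22% did. Some of these rest on calls that other fits lost. The FOS rise in MM1.S did not pass in limma (adjusted p = 0.159). In H929 the FOSL2 rise was 0.05 without shRNA1 replicate 1. The JUNB fall there did not pass with TMM scaling (limma adjusted p = 0.0555) or in edgeR (adjusted p = 0.0842). EGR1 and FOSB were called lower with both hairpins in both lines. A fall with both was called for 10.6% of genes in MM1.S and 11.6% in H929, and the share falling in both lines was not counted. With shRNA1, EGR1 did not pass in limma in MM1.S (adjusted p = 0.0659), nor FOSB in edgeR in H929 (adjusted p = 0.0681). DUSP6 was the other member called lower with both hairpins in H929. DUSP5 rose with both hairpins in H929 (6.97% of genes), no member did in MM1.S (6.24%), and none fell with shRNA1 and rose with shRNA2 in MM1.S (0.499%) or H929 (2.76%). With the replicate block, which pairs the MM1.S libraries, the MM1.S counts were 5 members higher and 3 lower for shRNA1, then 3 higher and 6 lower for shRNA2, where 59.4% and 58.8% of all genes were called. JUNB (edgeR adjusted p = 5.15e-06 and 8.08e-04) and JUND (4.04e-04 and 4.52e-06) then rose with both hairpins.

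The hairpins were also set against each other. In MM1.S, 5 of the 10 members were lower with shRNA2 than with shRNA1 and none was higher, where 36.8% of all genes differed, 20.4% lower and 16.4% higher. The differences were -6.79 ± 0.33 for FOS (edgeR adjusted p = 4.66e-05), -2.70 ± 0.32 for FOSB (edgeR adjusted p = 7.53e-04) and -1.70 ± 0.16 for DUSP6 (edgeR adjusted p = 2.86e-04), each with its SE. Those of JUN and DUSP5 were smaller, at -0.86 ± 0.24 (edgeR adjusted p = 0.0250) and -0.68 ± 0.15 (edgeR adjusted p = 0.00986). JUN did not pass without shRNA2 replicate 1 (-0.75, edgeR adjusted p = 0.130), shRNA1 replicate 2 (-0.55, adjusted p = 0.113) or shRNA2 replicate 2 (-0.96, adjusted p = 0.0704), and DUSP5 did not when shRNA2 replicate 1 (-0.51, adjusted p = 0.0872) was left out, or else shRNA1 replicate 2 (-0.59, adjusted p = 0.050006). With the replicate block the count was 7 lower and 2 higher, with FOSL2 (edgeR adjusted p = 7.97e-04) and JUNB (adjusted p = 0.00117) among the lower and JUND (adjusted p = 0.00176) and IER2 (adjusted p = 0.0428) the higher, and 58.2% of all genes were then called in either direction.

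In H929, where each hairpin has its own scramble, the shRNA2 effect was lower than the shRNA1 effect for 7 of the 10 members and higher for none, where 41.8% of all genes differed, 21.9% lower and 20.0% higher. The differences were -5.23 ± 0.65 for FOS (SE; limma adjusted p = 9.67e-06), -3.34 ± 0.31 for JUN (limma adjusted p = 5.07e-07), -1.50 ± 0.38 for EGR1 (limma adjusted p = 0.00494) and -1.07 ± 0.21 for FOSL2 (limma adjusted p = 7.45e-04). JUNB, IER2 and DUSP6 differed by -0.98, -0.82 and -0.51 (limma adjusted p = 9.98e-06, 3.20e-04 and 0.0181). DUSP6 did not pass without replicate 1 of the scramble for shRNA1 (-0.33, limma adjusted p = 0.104), replicate 1 of the scramble for shRNA2 (-0.44, adjusted p = 0.0874) or shRNA2 replicate 2 (-0.46, adjusted p = 0.0850), and EGR1 did not in DESeq2 (-1.53, adjusted p = 0.0653) or with no filter (0.0613), nor did DUSP6 with no filter (0.0844). Without shRNA1 replicate 2 the FOSB difference passed (-1.29, limma adjusted p = 0.00162), as did that of DUSP5, upward, without shRNA1 replicate 1 (0.66, limma adjusted p = 8.20e-04) and that of JUND without replicate 2 of the scramble for shRNA1 (limma adjusted p = 0.0201). FOS, JUN and DUSP6 were thus the members called lower with shRNA2 in the hairpin contrasts of both lines. The share of all genes called lower in both contrasts was not counted.

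**Figure D3:**
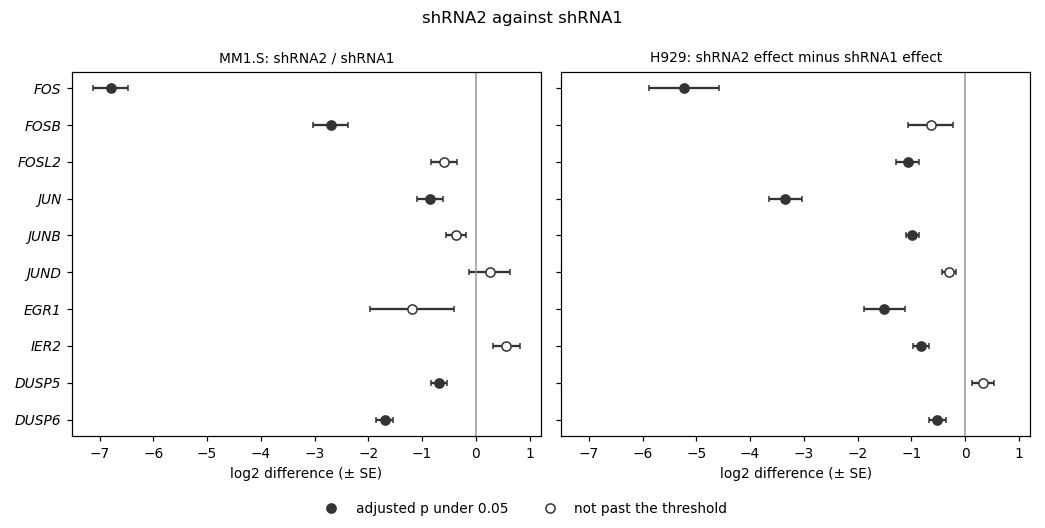
Log2 difference between the hairpins with bars for 1 SE, as shRNA2 over shRNA1 in MM1.S and as the shRNA2 effect minus the shRNA1 effect in H929; filled points have an adjusted p under 0.05. FOS is farthest to the left in both panels, at -6.79 and -5.23, and no member is called to the right.

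The scramble groups of H929 are themselves not alike in these genes. Between the scramble for shRNA2 and the scramble for shRNA1, 4 members were lower, FOSL2, JUNB, JUND and DUSP5, and none was higher, where 29.9% of all genes differed, 13.1% lower and 16.8% higher. JUND had 107 and 96.8 CPM in the scramble for shRNA2, against 175 and 209 CPM in the scramble for shRNA1 (-0.91 ± 0.09 (SE), limma adjusted p = 5.72e-06), and JUNB differed by -0.64 ± 0.09 (SE; limma adjusted p = 5.67e-05). FOSL2 and DUSP5 differed by -0.51 and -0.56 (limma adjusted p = 0.0178 and 0.00968). FOSL2 missed the threshold without either library of the scramble for shRNA2 or replicate 2 of the scramble for shRNA1 (in that order -0.52, -0.50 and -0.45, limma adjusted p = 0.0919, 0.109 and 0.106). DUSP5 missed it without replicate 1 or 2 of the scramble for shRNA2 (-0.56 in both, limma adjusted p = 0.0682 and 0.0743), and both missed it with no filter (0.112 for FOSL2 and 0.0842 for DUSP5), DUSP5 also in DESeq2 (0.0697). Without replicate 2 of the scramble for shRNA1, FOS (-1.29, limma adjusted p = 0.0320), JUN (-0.67, adjusted p = 0.0147) and DUSP6 (0.38, adjusted p = 0.0332) also passed, and EGR1 did without its replicate 1 (-0.99, adjusted p = 0.0141). What sets the scramble groups apart is not stated in the labels.

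The effect of each hairpin was then compared between the lines, with each difference taken within its own table. With shRNA1, 2 members differed: JUN, lower in MM1.S (log2 difference -1.78 ± 0.40 (SE), limma adjusted p = 0.00736), and DUSP6, higher (0.88 ± 0.20, limma adjusted p = 0.00733). Over all 20370 genes, 21.4% differed, with 11.0% lower and 10.4% higher. With shRNA2, 3 members differed: FOS (-3.01 ± 0.80, limma adjusted p = 0.0333) and FOSB (-2.79 ± 0.53, adjusted p = 0.00635) were lower in MM1.S and IER2 was higher (1.237 ± 0.23, adjusted p = 0.00568), where 9.75% of genes differed, 5.41% lower and 4.34% higher. FOS did not pass without scramble replicate 1 (-2.96, limma adjusted p = 0.0618) or shRNA2 replicate 1 of MM1.S (-2.35, adjusted p = 0.115), nor without shRNA2 replicate 1 of H929 (-2.50, adjusted p = 0.146) or replicate 2 of its scramble (-2.54, adjusted p = 0.135). It was also lost with edgeR on reads (-3.05, adjusted p = 0.0962) and in limma with no filter (adjusted p = 0.0856). FOSL2 passed with shRNA1 when MM1.S scramble replicate 1 (limma adjusted p = 0.0333) or H929 shRNA1 replicate 2 (adjusted p = 0.0188) was left out, DUSP5 when H929 shRNA1 replicate 1 was (adjusted p = 0.0443), and JUNB with shRNA2 when MM1.S shRNA2 replicate 1 (adjusted p = 0.0381) or scramble replicate 2 (adjusted p = 0.0203) was. With the replicate block, FOS and FOSL2 were lower in MM1.S with shRNA1 (-1.46 and -0.87, limma adjusted p = 0.0126 and 0.00731). With shRNA2 and the block, JUN, JUNB and JUND were higher in MM1.S (0.75, 0.66 and 0.71, limma adjusted p = 0.0274, 0.00142 and 0.00190) and DUSP5 lower (-0.66, adjusted p = 0.0219). The ZBP1 drop itself was larger in MM1.S, with log2 differences of -1.25 ± 0.17 and -1.48 ± 0.17 for shRNA1 and shRNA2 (SE; limma adjusted p = 2.61e-04 and 3.05e-04).

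In the authors' deposited tables, called at an adjusted p under 0.05, 4 members were higher and 2 lower with shRNA1 in MM1.S, 2 higher and 6 lower with shRNA2 in MM1.S, 3 higher and 3 lower with shRNA1 in H929, and 1 higher and 7 lower with shRNA2 in H929. The share of all genes called by the authors was not counted here, so these member counts have no background to be read against. In the authors' deposited table for shRNA1 in MM1.S, FOS had a log2 fold change of 0.67 (adjusted p = 0.143) and EGR1 one of -0.93 (adjusted p = 0.163). FOSL2 was lower there (-0.48, authors' adjusted p = 0.0160). JUND (0.32, authors' adjusted p = 3.36e-04) and DUSP6 (0.42, authors' adjusted p = 0.00153) were higher. None of FOSL2, JUND and DUSP6 passed in the main edgeR fit. In the authors' deposited table for shRNA2 in MM1.S, FOS was at -4.61 (adjusted p = 1.17e-29). JUN was lower there (-0.64, authors' adjusted p = 1.11e-07). JUNB (0.42, authors' adjusted p = 0.00288) and JUND (0.60, authors' adjusted p = 1.30e-12) were higher. None of JUN, JUNB and JUND passed in the main edgeR fit. The authors' deposited tables give FOS 1.97 with shRNA1 and -2.72 with shRNA2 in H929 (adjusted p = 8.36e-14 and 3.58e-19). With shRNA1 in H929, FOSL2 (0.32, authors' adjusted p = 0.115) and DUSP5 (0.29, authors' adjusted p = 0.390) did not pass there. Nor did JUNB with shRNA2 in H929 (-0.23, authors' adjusted p = 0.0762). The main limma fit called each of these.

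Beyond the members, the wider immediate early response was read from a list of other such genes, 39 of them in the tables and 34 tested in each line. This list and those that follow were also chosen with earlier results known. Their counts are no independent test against the shares of all genes either. With shRNA1, 17 rose and 2 fell in MM1.S and 21 rose and 6 fell in H929 (median log2 change 0.51 and 0.65), where 17.8% of all genes rose and 19.7% fell in MM1.S and 25.7% and 27.7% in H929. With shRNA2, 4 rose and 17 fell in MM1.S and 4 rose and 19 fell in H929 (median -0.57 and -0.44), where 14.9% of all genes rose and 21.7% fell in MM1.S and 18.0% and 25.0% in H929. The same shares of all genes apply to the lists that follow. Between the hairpins, 26 were lower with shRNA2 and 1 higher in MM1.S, and 24 and 3 in H929 (median -1.18 and -1.02), where 20.4% of all genes were lower and 16.4% higher in MM1.S and 21.9% and 20.0% in H929. The zinc finger factor KLF10 and the nuclear protein CSRNP1 moved in opposite directions in MM1.S, KLF10 by 0.64 ± 0.12 and -0.80 ± 0.12 (SE; edgeR adjusted p = 0.00450 and 0.00188) and CSRNP1 by 0.99 ± 0.15 and -0.78 ± 0.16 (adjusted p = 0.00195 and 0.00645). ATF3, a stress-induced CREB family factor, did so in H929 (1.65 ± 0.14 and -0.62 ± 0.14, limma adjusted p = 5.31e-08 and 0.00165), as did the FOS family gene FOSL1 (0.58 ± 0.16 and -1.48 ± 0.16, adjusted p = 0.00608 and 2.16e-06). KLF2 and the pseudokinase gene TRIB1 fell with both hairpins in MM1.S, KLF2 with log2 changes of -2.02 and -4.08 and TRIB1 with -1.11 and -1.91 (edgeR adjusted p = 0.00233, 1.79e-04, 7.59e-04 and 8.47e-05), while SGK1, a serum-induced kinase gene, rose with both (1.06 and 0.62, adjusted p = 6.20e-04 and 0.00681). In H929, MYC fell with both (-0.72 and -1.19, limma adjusted p = 5.34e-05 and 5.87e-07), and the synaptic gene ARC and the small GTPase gene GEM moved opposite to FOS, FOSL2, JUN and JUNB, down with shRNA1 (-1.18 and -0.91, adjusted p = 2.48e-05 and 2.46e-05) and up with shRNA2 (1.26 and 0.96, adjusted p = 2.39e-05 and 2.54e-05).

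Regulators that feed back on ERK were counted in a list of 24. In MM1.S 9 of 23 tested were higher and 3 lower with shRNA1, against 3 and 4 with shRNA2 (medians 0.62 and -0.03). In H929 the counts of 24 were 11 and 8 with shRNA1, then 1 and 13 with shRNA2 (medians 0.29 and -0.51). ETV4 and ETV5, ETS factors used as ERK output genes, and PHLDA1 fell with both hairpins in H929, as DUSP6 did: ETV4 with -1.82 ± 0.13 and -1.89 ± 0.13, ETV5 with -1.19 ± 0.13 and -1.29 ± 0.13, and PHLDA1 with -1.61 ± 0.19 and -2.02 ± 0.19 (SE; limma adjusted p of 3.40e-06 or less). In MM1.S the phosphatase genes DUSP7 and DUSP4 fell with both (-1.31 and -1.80, and -0.67 and -1.22; edgeR adjusted p of 0.00856 or less) and SPRED1, an inhibitor of RAS signalling, rose with both (2.07 and 0.68, adjusted p = 4.41e-05 and 0.00474). DUSP1, which acts on JNK and p38, fell with shRNA2 in MM1.S (-1.61 ± 0.19 (SE), edgeR adjusted p = 5.75e-04) and rose with shRNA1 in H929 (1.59 ± 0.26 (SE), limma adjusted p = 8.61e-05). SPRY2, an ERK feedback inhibitor, fell with shRNA2 in H929 (-1.95 ± 0.36 (SE), limma adjusted p = 4.07e-04).

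Upstream of the members, kinase pathway genes counted 7 higher and 6 lower of 33 with shRNA1 and 6 and 4 with shRNA2 in MM1.S, where 37.5% and 36.6% of all genes were called. In H929 the counts were 11 and 14 with shRNA1 and 6 and 11 with shRNA2, where 53.4% and 43.0% of all genes were called. SRF itself fell with shRNA1 in both lines, with -1.09 ± 0.15 in MM1.S (SE; edgeR adjusted p = 0.00127) and -0.92 ± 0.10 in H929 (limma adjusted p = 7.52e-07), and differed by -0.03 and -0.20 with shRNA2 (edgeR adjusted p = 0.880, limma adjusted p = 0.105). ELK1, a ternary complex factor, fell with both hairpins in MM1.S (-0.55 and -0.50, edgeR adjusted p = 0.0245 and 0.0346) and with shRNA2 in H929 (-0.82, limma adjusted p = 8.24e-06). NAB2, a co-repressor that EGR1 induces, fell with shRNA2 in H929 (-1.13 ± 0.18 (SE), limma adjusted p = 1.21e-04) and differed by 0.19 with shRNA1 there (limma adjusted p = 0.397) and by 0.01 and -0.26 with shRNA1 and shRNA2 in MM1.S (edgeR adjusted p = 0.984 and 0.381). The list of SRF, its partners, CREB factors and EGR co-repressors counted 3 higher and 4 lower of 19 with shRNA1 and 2 and 2 with shRNA2 in MM1.S, and 8 and 5 with shRNA1 and 1 and 5 with shRNA2 in H929, with the same shares of all genes called.

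Among 18 other genes whose products pair with FOS or JUN or share their sites, 7 of 17 tested were higher and none lower with shRNA1 in MM1.S, then 4 and 1 with shRNA2. The H929 counts of 18 were 6 and 5 with shRNA1, then 2 and 7 with shRNA2. BACH2, a B-lineage repressor at AP-1-like sites, rose in all 4 comparisons (0.94 and 0.99 in MM1.S, edgeR adjusted p = 7.98e-04 and 6.72e-04; 1.27 and 0.62 in H929, limma adjusted p = 9.93e-07 and 0.00176). Heat shock genes, listed as a sign of handling stress, counted 0 higher and 8 lower of 14 with shRNA1 and 1 and 6 with shRNA2 in MM1.S, and 4 and 6 with shRNA1 and 1 and 5 with shRNA2 in H929. Between the H929 scramble groups 7 of 14 were higher in the scramble for shRNA2 and none lower, where 16.8% of all genes were higher and 13.1% lower. The part of heat shock genes in the differences between those groups was not tested.

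**Figure D4:**
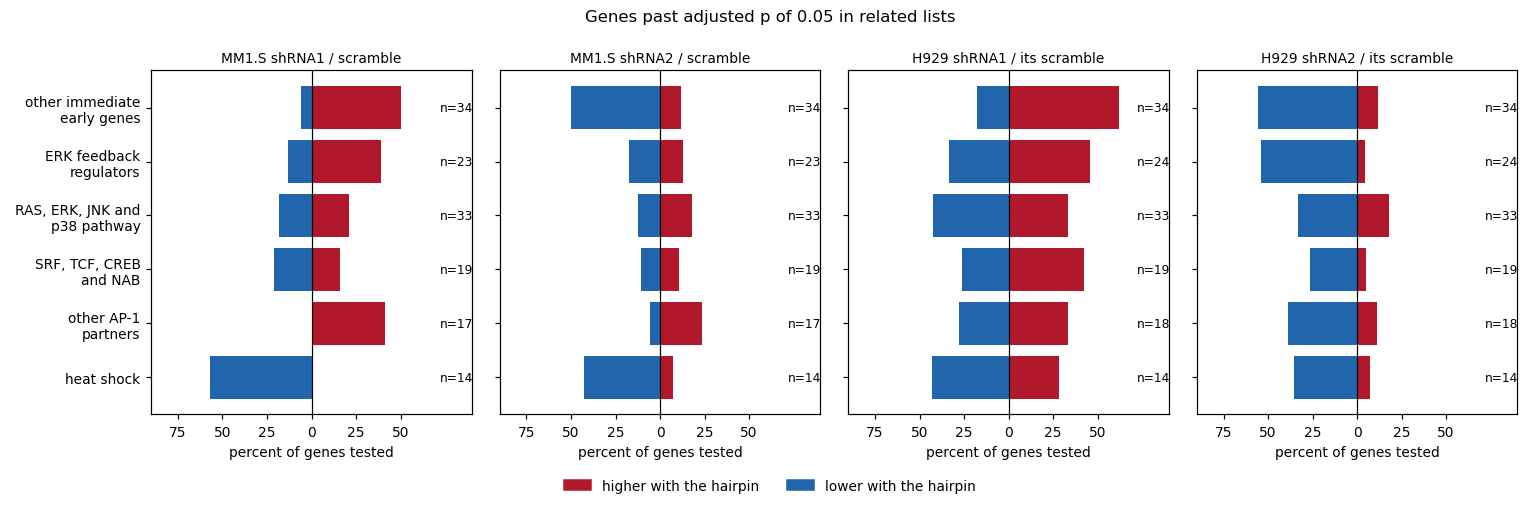
Percent of the tested genes of 6 lists with an adjusted p under 0.05, higher (right, red) or lower (left, blue) with the hairpin, for the 4 hairpin comparisons; n is the number tested. For other immediate early genes the larger bar is on the right with shRNA1 (17 of 34 in MM1.S, 21 of 34 in H929) and on the left with shRNA2 (17 and 19 of 34).

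The genes whose levels ran closest to 4 of the members were found by the smallest root mean square difference over the 14 libraries, on the log2 scale with each line centred on its own mean, among 9798 genes of at least 5 CPM in both lines. Closest to FOS was EMP2, which encodes a tetraspan membrane protein, with a difference of 0.89, followed by ENAH, an actin regulator (1.18), and MARCKSL1, a protein kinase C substrate (1.243); the median gene differed from FOS by 2.61. EMP2 had 32.8 and 38.3 CPM with shRNA1 and 1.14 and 1.00 CPM with shRNA2, against 24.9 and 22.3 CPM with scramble, in MM1.S. In H929 it had 89.2 and 95.5 CPM with shRNA1, against 28.5 and 39.4 CPM with its scramble, and 5.42 and 4.64 CPM with shRNA2, against 26.8 and 26.6 CPM with its scramble. EMP2 stood above scramble with shRNA1 and below it with shRNA2 in every library of both lines, as FOS did. Since EMP2 was picked for its likeness to FOS in these same libraries, this match is not a separate result. FOS itself had a root mean square deviation of 2.55 from its line means. MARCKSL1 went against FOS with shRNA1 in MM1.S, with a mean of 33.2 CPM against 65.2 CPM with scramble. Closest to JUN were TMCC2 (0.35), CRACR2B (0.36) and IQSEC1 (0.36; median 1.09), and closest to EGR1 were SIPA1 (0.58), AQP3 (0.60) and SLC17A9 (0.62; median 1.31). DUSP6 had the closest neighbours, MAN2A1 (0.12), F2R (0.14) and PPP3CA (0.15; median 0.66).

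**Figure D5:**
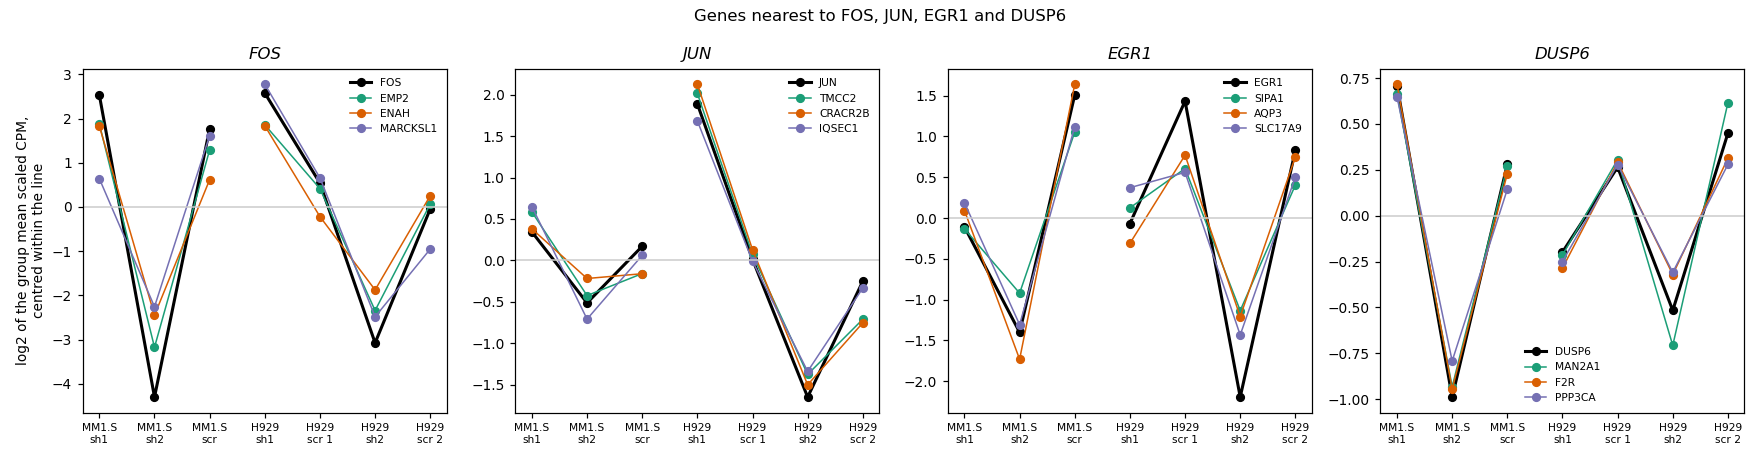
Log2 of the group mean of scaled CPM, centred on the mean of the groups of each line, for FOS, JUN, EGR1 and DUSP6 (black) and the 3 genes nearest to each; points are means of 2 libraries. The nearest genes of FOS have a root mean square difference from it of 0.89 to 1.243 and those of DUSP6 one of 0.12 to 0.15. MARCKSL1 lies below scramble with shRNA1 in MM1.S, where FOS lies above it.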

How the data were processed

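RNA was sequenced from 14 libraries. STAR 2.5.3a, DESeq2 1.24.0 and GRCh38 are named, with no roles, per the submitters' processing notes; the counting tool, annotation and strandedness are not given in the sources used here. The deposited MM1.S table holds raw counts per gene, per the file headers. The deposited H929 table carries the same name but holds a scaled signal: each library had been divided by its own size factor, so limma took the place of the count test planned for raw counts. Multiplied back, 100% of values were whole within 0.01. The authors also deposited tables with a mean signal, a log2 fold change, its standard error (another quantity, not used), a test statistic (a score, not used) and p-values. The direction of those fold changes was read from ZBP1, which is negative in each, as knockdown over scramble. The shRNA2 columns are headed 4 and were matched as the only other hairpin, and 1 H929 scramble column (shRNA1, replicate 2) was matched in the same way. Of each count table, 18 repeated identifiers were left out.

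The main MM1.S test was edgeR 4.0.16, quasi-likelihood (TMM, minimum count 10, 6 libraries in 1 fit), and H929 values with limma 3.58.1 on log2(value + 1), 8 libraries in 1 fit, for genes of at least 10 in at least 2 libraries. Line differences used limma over all 14 libraries. Adjusted p is Benjamini-Hochberg over all genes tested, threshold 0.05, in R 4.3.3. The SE of an edgeR value is not given by that fit. It was taken as the absolute log2 change divided by the square root of the quasi-likelihood F statistic. edgeR on the recovered H929 reads called 9935 genes with shRNA1 and 8022 with shRNA2, where limma called 9729 and 7825. Scaled CPM is TMM-scaled in MM1.S and, in H929, the deposited value relative to the mean column total. Deviations from the group mean ran together in the MM1.S libraries that share a replicate number (correlations 0.418 to 0.672 across 12636 genes). The main MM1.S fit left the number out, as no label says what it stands for, and only the replicate block pairs by it. The main MM1.S calls therefore do not take this shared deviation into account. The H929 numbers did not pair (-0.138 to 0.207 across 12509 genes). Replicate libraries differed by 2.36 to 30.3 times the counting noise, so none was counted as a duplicate. Intervals are at 95% and cover counting error only. Fits were tested on simulated data.

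The members and lists were chosen with earlier results of these data known. Named genes were all members, ZBP1, up to 3 genes of each list called in the same direction and up to 2 in opposite directions with both hairpins (largest smaller change, mean of at least 5 CPM), 7 set regulators, overlapping genes, and the 3 nearest to 4 members. FOSB, JUNB, FOSL2, IER2 and DUSP6 overlap genes on the opposite strand. Alternatives were other scaling, DESeq2 1.42.0, a pseudocount of 8, no filter, only the compared groups, all 4 scrambles, the replicate block and leaving out each library.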

Additional observations from a re-analysis of the deposited data

Results flagged for a closer look

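For 5 results the effect of a hairpin differed between the lines by a test of the difference itself, given as the MM1.S effect minus the H929 effect on the log2 scale with its SE. With shRNA1, JUN differed by -1.78 ± 0.40 (limma adjusted p = 0.00736) and DUSP6 by 0.88 ± 0.20 (limma adjusted p = 0.00733). DUSP6 stood above scramble in both shRNA1 libraries of MM1.S and below its scramble in both of H929. With shRNA2, FOS differed by -3.01 ± 0.80 (limma adjusted p = 0.0333) and FOSB by -2.79 ± 0.53 (limma adjusted p = 0.00635), both having fallen farther in MM1.S. The FOS difference did not pass with edgeR on reads (-3.05, adjusted p = 0.0962), in limma with no filter (adjusted p = 0.0856), or when any 1 of 4 libraries was left out (-2.96 to -2.35, limma adjusted p = 0.0618 to 0.146). IER2 differed by 1.237 ± 0.23 with shRNA2 (limma adjusted p = 0.00568), having fallen in H929 and not passed the threshold in MM1.S (0.56, edgeR adjusted p = 0.105).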

How the results depend on the processing

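Of 9 counts of members called, those of MM1.S moved most with the replicate block, which pairs the MM1.S libraries: 8 in place of 5 with shRNA1, 9 in place of 5 with shRNA2 and 9 in place of 5 between the hairpins, where the share of all genes called was 59.4%, 58.8% and 58.2%. The line differences counted 4 in place of 2 with shRNA1 and 7 in place of 3 with shRNA2 under the block, with 31.4% and 18.9% of all genes called in place of 21.4% and 9.75%. The block gave no other call that differed, H929 included. limma in place of edgeR called 3 members with shRNA1 in MM1.S. In H929 with shRNA1, 5 in place of 8 were called with no filter and 5 with only the compared groups in the fit, and between the H929 scramble groups 2 in place of 4 with no filter. Leaving out each library in turn gave 3 to 4 members with shRNA1, 3 to 6 with shRNA2 and 3 to 5 between the hairpins in MM1.S, with 22.8% to 31.4%, 18.9% to 29.9% and 19.5% to 24.6% of all genes called. In H929 it gave 5 to 8 with shRNA1, 8 with shRNA2, 6 to 8 for the hairpin difference and 2 to 6 between the scramble groups, with 45.7% to 49.8%, 29.2% to 34.9%, 32.8% to 41.4% and 18.1% to 25.4% of all genes. For the line differences it gave 2 to 3 with shRNA1 and 2 to 4 with shRNA2, with 15.1% to 22.2% and 4.06% to 10.6% of all genes. Signs turned in some alternatives for differences that had not passed the threshold: IER2 with shRNA1 in MM1.S was 0.0052 in limma, and the line difference with shRNA1 was -0.00094 for JUNB in edgeR and 0.022 (TMM) and 0.51 (pseudocount 8) for EGR1. Leaving out 1 library moved the shRNA1 difference in MM1.S from -0.099 up to 0.47 for JUN, -0.11 up to 0.84 for JUND and -0.23 up to 0.23 for IER2, that of DUSP5 with shRNA2 from -0.16 up to 0.20, and JUND between the hairpins from -0.19 up to 0.72. In H929 the ranges were -0.0039 to 0.33 for IER2 with shRNA1, -1.29 to 0.012 for FOSB between the hairpin effects, and -1.29 to 0.51 for FOS and -0.67 to 0.25 for JUN between the scramble groups. For the line difference with shRNA1 they were -0.14 to 0.20 for JUNB, -0.32 to 0.59 for JUND, -0.83 to 0.58 for EGR1 and -0.38 to 0.064 for IER2. The cause was not tested. DESeq2 gave no adjusted p for EGR1 with shRNA1 in MM1.S, and that value is left out.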
